A study of Homo sapiens with 2 samples.

Results

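The 4 Mb of chromosome 8 that run from 126000000 to 130000000 (hg19) hold TRIB1, MYC, PVT1 and the noncoding genes between them, in the chromosome band 8q24. Flag CUT&Tag peak lists of HCT116 cells held 1091 peaks there, 420 in the TRPS1-WT and 671 in the TRPS1-MT library, of 498877 peaks in all (173304 and 325573). The peaks were chosen by position alone, but the region itself was selected on the peak lists described here, so its density and strength are given as description. HCT116 is a human colorectal carcinoma cell line of epithelial origin. The cells of both groups carried a lentiviral vector with puromycin selection that stably overexpressed Flag-tagged TRPS1, either as wild type (TRPS1-WT) or with the R544Q substitution (TRPS1-MT), so the protein mapped was the added one. In CUT&Tag, the Flag antibody bound to chromatin recruits a transposase that cuts and tags the DNA close by, and the tagged fragments are sequenced. The study also made cells with an empty vector, but no CUT&Tag of them and no control library for the peak calls is named in the sources used here. Each condition had 1 library, so the conditions could not be tested against each other, no p-value was computed, and all differences are between these libraries. Intervals are at the 95% level and cover counting error only, apart from those of median ratios, which are taken over pairs.

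TRPS1 is a zinc finger protein with a GATA-type finger that acts mostly as a transcriptional repressor. MYC encodes a transcription factor that drives growth and division, and it lies in a stretch with few coding genes and many distant enhancers, some of them active in colorectal cancer cells and bound by TCF7L2. PVT1, directly 3′ of MYC, is a long noncoding RNA gene with enhancers inside its introns. TRIB1 encodes a pseudokinase that brings the COP1 ubiquitin ligase to C/EBPα.

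The region was dense in peaks and held very strong ones in both libraries. TRPS1-WT peaks stood at 105 per Mb (66.6 on chromosome 8 and 56.0 over all standard chromosomes) and TRPS1-MT peaks at 168 per Mb (124 and 105). When the genome was divided into 718 tiles of 4 Mb, 4 tiles had more TRPS1-WT peaks and 17 had more TRPS1-MT peaks than this region, and the tile median was 247.5 and 462.5. The number of sequenced fragments piled up at a peak's summit, called tags here, was recovered from the deposited fold and −log10 p. The median peak of the region had 20.5 tags in the TRPS1-WT and 22 in the TRPS1-MT library, beside 14 and 17 over the whole lists. Summed over the region, the summits held 36685 and 46956 tags, and 0 of the 718 tiles held more in either list, beside a tile median of 6849 and 12694. Among the strongest 1% of each list by −log10 p were 20 of the 420 TRPS1-WT peaks (4.76%, 3.10 to 7.24) and 25 of the 671 TRPS1-MT peaks (3.73%, 2.54 to 5.44). The edges lay among weak peaks. The peaks just inside and just outside the lower edge had 32 and 11 tags in TRPS1-WT cells. In TRPS1-MT cells the first peak inside had 14 tags, and a peak of 11 tags that lay across the edge was left out. At the upper edge, the peaks inside and outside had 9 and 11 tags in TRPS1-WT cells and 12 and 11 in TRPS1-MT cells.

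**Figure D1:**
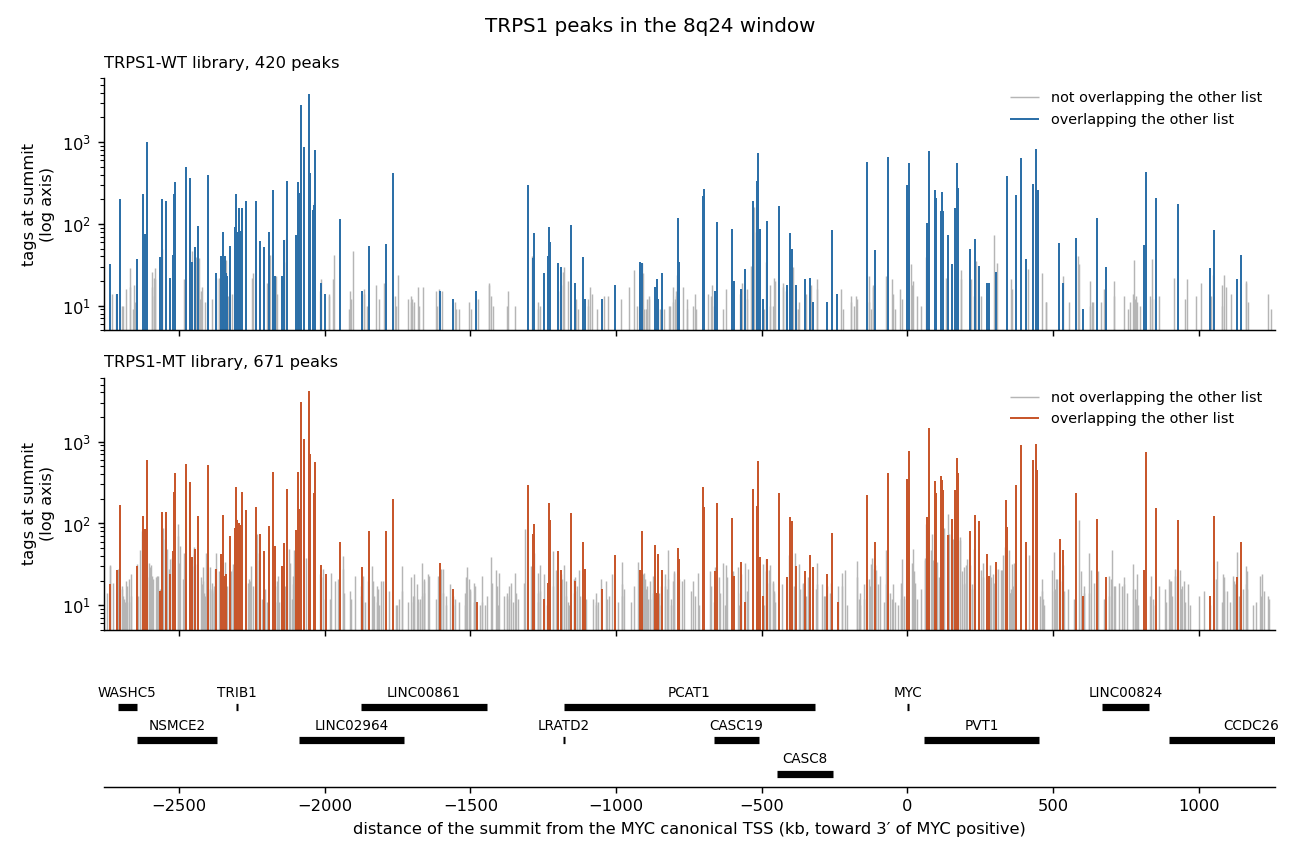
Tags at the summit of each peak (log axis) against the distance of the summit from the MYC canonical TSS in kb, for the 420 TRPS1-WT peaks and the 671 TRPS1-MT peaks, coloured where the peak overlapped the other list and grey where it did not, with gene bodies as bars below. The tallest summits of both libraries, at 3878 and 4224 tags, lie in LINC02964, at −2056 kb, and tall coloured peaks recur at NSMCE2, at CASC19, at MYC and along PVT1.

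The strongest peaks of the region were not at MYC but in an intron of LINC02964, a long noncoding RNA gene 3′ of TRIB1. The peak at chr8:126691989-126693025 had 3878 tags (3757 to 4002) in TRPS1-WT cells, where it was number 3 of the whole list, and lay 246719 bp from the nearest coding TSS, that of TRIB1. Its counterpart at chr8:126691918-126693011 had 4224 tags (4098 to 4353) in TRPS1-MT cells and was number 10 of that list. A second intronic peak, chr8:126667725-126668475, had 2805 tags (2702 to 2911) in TRPS1-WT cells. It had 3082 (2974 to 3193) in TRPS1-MT cells. The summits of both pairs were 45 and 40 bp apart. Close to them, chr8:126676366-126677291 had 880 and 1070 tags, chr8:126714001-126714609 had 801 and 557, and chr8:126698468-126699263 had 415 and 702 in TRPS1-WT and TRPS1-MT cells. The promoter of LINC02964 itself carried a weaker shared peak, chr8:126660399-126660957, with 241 tags in TRPS1-WT cells and 152 at its counterpart in TRPS1-MT cells.

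When shared TRPS1-WT peaks at most 12.5 kb apart were joined, the region gave 86 clusters, of which 44 held a single peak and 6 held 5 or more. The strongest cluster ran over 22.6 kb of LINC02964 and held 15.3% of all summit tags of the region in the TRPS1-WT and 12.2% in the TRPS1-MT library. The next, over 27.9 kb at the start of the same gene, held 11.8% and 10.3%. Without the 2 neighbouring bins of 100 kb that hold these clusters the region still had 25968 and 35558 summed tags. The cluster with most shared peaks was the one at TRIB1, with 8 over 38.5 kb.

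In 40 bins of 100 kb, the summed tags ranged from 65 to 9138 in TRPS1-WT cells, with a median of 451, and from 90 to 10327 in TRPS1-MT cells, with a median of 566.5. The 5 strongest bins, 12.5% of the region, held 48.5% and 48.3% of its summed tags. Peak numbers were more even, from 4 to 18 in a bin in TRPS1-WT cells and from 7 to 26 in TRPS1-MT cells. Across the bins the summed tags of the libraries followed each other closely (Pearson's r = 0.973, Spearman's rho = 0.968) and the peak numbers less so (0.586 and 0.588), as a description over 40 neighbouring bins of the same pair of libraries. The quietest stretch was the run of 4 bins from chr8:127000001 to 127400000, which includes the canonical TSS of LINC00861. Its bins held 65 to 113 tags in TRPS1-WT cells and 249 to 305 in TRPS1-MT cells, and 0 to 2 shared peaks.

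At MYC, both libraries had the same 4 peaks. The promoter peak lay at chr8:128747354-128748398 in TRPS1-WT cells, with 301 tags (268 to 337) and a fold of 9.82 over its local background. In TRPS1-MT cells it lay at chr8:128747299-128748747, with 346 tags and a fold of 7.94. The summits were at −825 and −920 bp from the canonical TSS. A smaller peak at −2033 and −1914 bp had a fold of 4.20 and 3.01. Both promoter peaks also lay in promoters of CASC11, a noncoding gene that starts next to MYC on the other strand. The strongest peak of the MYC locus was past the 3′ end of the gene, where chr8:128755211-128755798 had 550 tags (505 to 598) in TRPS1-WT cells. Its counterpart, chr8:128754973-128755878, had 775 (721 to 832) in TRPS1-MT cells, so the 3′ peak exceeded the promoter peak in both libraries. Another peak, over the last exon, had 128 tags in the TRPS1-WT and 268 in the TRPS1-MT library, with summits 5966 and 5844 bp from the TSS.

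TRIB1 had its strongest peak at its TSS. The TRPS1-WT peak chr8:126442023-126442679 had 229 tags with the summit at −86 bp from the TSS, and the TRPS1-MT peak chr8:126442204-126442778 had 278 tags with the summit at −97 bp. Around it, shared peaks had their TRPS1-WT summits at −4320 bp (92 and 87 tags), −2999 bp (92 and 73), +4120 bp (80 and 111) and +9933 bp (156 and 101). A peak in the first part of the gene, chr8:126443635-126443951 with 112 tags, was in the TRPS1-MT list alone, and peaks 8466 and 11456 bp past the TSS, with 74 and 62 tags, were in the TRPS1-WT list alone. The TSS peak was the strongest around TRIB1 in both libraries, and next after it came the shared peak at +9933 bp in TRPS1-WT cells and the unshared peak of 112 tags in TRPS1-MT cells. The pair at +9933 bp, with a ratio at most 1/2 of the median of all pairs in the lists, is among the low ratios counted later.

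**Figure D2:**
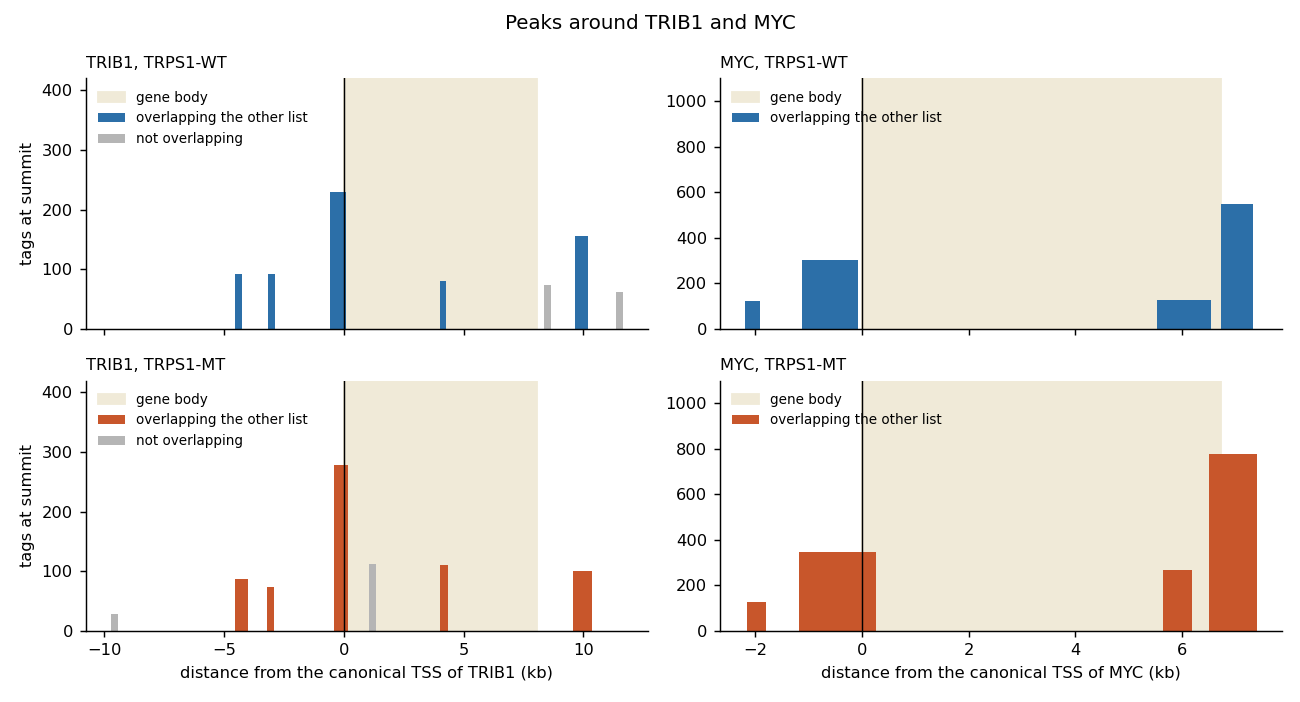
Peaks as bars, from start to end in kb from the canonical TSS of TRIB1 (left) and MYC (right) and as high as the tags at the summit, with the gene body shaded and peaks outside the other list in grey. At TRIB1 the highest bar of each library, at 229 and 278 tags, stands at the TSS, and at MYC the bar past the 3′ end, at 550 and 775 tags, is higher than the promoter bar at 301 and 346.

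Peaks in promoters, here −2 kb to +1 kb of any annotated TSS, were found in both libraries for 7 of the 7 protein-coding genes with a TSS in the region. Over all 20152 protein-coding genes 62.6% had one in both lists, 4.88% in TRPS1-WT alone, 13.8% in TRPS1-MT alone and 18.7% in neither, so most coding genes share this. At SQLE, the squalene epoxidase of cholesterol synthesis, the strongest promoter peaks had 32 and 31 tags and did not overlap each other, but the TRPS1-WT peak overlapped a weaker TRPS1-MT promoter peak, chr8:126010321-126010600, with 18 tags. At WASHC5, a subunit of the WASH complex that drives actin branching on endosomes, the strongest promoter peak was at an alternative TSS, with 199 and 166 tags. NSMCE2, the SUMO ligase of the SMC5/6 complex, had promoter peaks of at most 37 and 47 tags, although its introns held one of the strongest peaks of the region. LRATD2 had peaks of 30 and 31 tags on neighbouring positions that did not overlap. POU5F1B, a retrogene of POU5F1, had no peak at its canonical promoter in either library, and its strongest promoter peaks, of 18 and 22 tags, were at −94011 and −94039 bp, at another annotated TSS. Within 10 kb of the canonical TSS of POU5F1B all peaks had 10 to 33 tags. Of these coding promoters, MYC and TRIB1 alone had more than 200 tags in each library.

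Over all 55 genes with a TSS in the region, 24 had a promoter peak in both libraries, 7 in TRPS1-WT cells alone, 11 in TRPS1-MT cells alone and 13 in neither. Over all 62725 annotated genes these shares were 31.5%, 6.68%, 17.9% and 43.9%. For the 27 long noncoding RNA genes of the region the numbers were 12, 4, 6 and 5, beside 26.6%, 7.94%, 20.8% and 44.7% of all such genes. As genes of the region share promoters and peaks, these counts are not independent. CASC19, one of the colorectal cancer associated transcripts before MYC, had the strongest promoter peak of the noncoding genes named here, chr8:128234993-128235488 with 727 tags, and 585 at its counterpart. The TSS it belonged to was 1 of 72 annotated for CASC19, and the summit lay at −37814 bp from the canonical TSS. PCAT1, a transcript named for prostate cancer, had at most 50 and 107 tags in a promoter. Its body of 863 kb held 108 and 143 peaks, or 12.5 and 16.6 per 100 kb, beside a median of 10 and 16.5 in the 100-kb bins of the region. CCAT2, a transcript from a colorectal cancer risk enhancer, had 22 and 41. CASC8 and LINC00861 had a promoter peak in TRPS1-MT cells alone, of 16 and 13 tags, as had LINC00824 with 23. PRNCR1 had none in either library. Neither had CCDC26 at the 1 of its 76 TSSs that lies in the region, and its canonical TSS is outside. Since promoters of noncoding genes here include many alternative starts, a promoter peak need not lie at the main start of a gene.

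PVT1 carried 40 peaks in its body in TRPS1-WT cells, 27 of them shared, and 73 in TRPS1-MT cells, 26 of them shared. Of all TRPS1-WT and TRPS1-MT peaks, 40.5% and 24.6% were shared in the region and 30.4% and 15.8% in the lists. The PVT1 body of 393 kb held 10.2 and 18.6 peaks per 100 kb, beside a median of 10 and 16.5 in the 100-kb bins of the region. Its canonical promoter had no TRPS1-WT peak and 1 weak TRPS1-MT peak, chr8:128807510-128807833, with 36 tags. The strongest shared peaks were intronic: chr8:128821612-128822804, 73.7 kb 3′ of the MYC TSS, had 777 tags in the TRPS1-WT and 1477 in the TRPS1-MT library. Further 3′, chr8:129139484-129140439 had 634 and 913 tags. Near the end of the gene, chr8:129188785-129189680 had 827 and 934. PVT1 has 132 annotated TSSs, and its strongest promoter peaks by −log10 p were at alternative ones, at different places in the libraries. In TRPS1-WT cells it was chr8:128866274-128867101, with 242 tags and 342 at its TRPS1-MT counterpart. In TRPS1-MT cells it was chr8:128923371-128924060, with 420 tags and 274 at its TRPS1-WT counterpart. Beyond PVT1, an intronic peak of LINC00824, chr8:129566965-129567782, had 431 and 757 tags.

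Of the TRPS1-WT peaks of the region, 170 of 420 (40.5%, 35.9 to 45.2) overlapped a TRPS1-MT peak by at least 1 bp, beside 30.4% of the whole TRPS1-WT list. Of the TRPS1-MT peaks, 165 of 671 (24.6%, 21.5 to 28.0) overlapped a TRPS1-WT peak, beside 15.8% of that list. The shared peaks were the strong ones. They had a median of 75 tags in the TRPS1-WT and 85 in the TRPS1-MT library (31 and 42 over the whole lists), and the others had 14 and 19. Of the 70 TRPS1-WT peaks with at least 100 tags, 2 were not shared (2.08% over the whole list), and of the 80 such TRPS1-MT peaks, 3 were not (2.79%). The peaks outside the other list were often close to one in it. The nearest peak of the other list was within 1000 bp for 102 of 250 TRPS1-WT peaks (40.8%, beside 29.9% over the list) and for 121 of 506 TRPS1-MT peaks (23.9%, beside 15.3%), in a region where peaks of both lists are dense. Shared peaks were also nearer to coding genes, with a median distance to a coding TSS of 113 kb in each list against 235 and 206 kb for the others. The same order was seen over the whole lists, at 13.6 against 26.8 kb and 13.7 against 28.4 kb.

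The strongest TRPS1-WT peak with no overlap, chr8:128222538-128222969 in a promoter of CASC19, had 161 tags (137 to 188) and lay 2872 bp from the nearest TRPS1-MT peak. Next by −log10 p were chr8:129047464-129047872 in PVT1 with 74 tags and chr8:126710843-126711343 in LINC02964 with 187, the last on a local background of 50.6 tags. The remaining 7 of the 10 strongest had 36 to 46 tags. In TRPS1-MT cells the strongest was chr8:127437124-127437437, between genes, with 85 tags (67.9 to 105) and a gap of 8257 bp. It was followed by chr8:129336567-129337381 in a noncoding gene with 109 tags and by chr8:128888852-128889515 in PVT1, which had an interval of 108 to 153 tags and lay only 255 bp from a TRPS1-WT peak. The remaining 7 had 44 to 98 tags, and 4 of them lay in NSMCE2. None of these 20 peaks reached the level of the strongest shared peaks.

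For each shared TRPS1-WT peak the strongest TRPS1-MT peak that overlapped it was taken as its pair, and the ratio of their summit tags was read against the median ratio of 1.33 over all 52620 pairs in the lists, since the libraries were not scaled to each other. The lists also differed in their narrowest peak, 168 bp in TRPS1-WT and 280 bp in TRPS1-MT cells. This was the width of 55.95% and 70.34% of the region's peaks, beside 69.55% and 82.25% of the lists. How this difference bears on tags and overlap was not tested. The 170 pairs of the region had a median ratio of 1.21 (quartiles 0.843 and 1.63). Tags of a pair followed each other, with r = 0.906 on the log2 scale across pairs (0.837 over all pairs), which are not replicates. At least 2 times the median of all pairs was reached by 11 pairs (6.47%, 3.65 to 11.2), beside 11.2% of all pairs. At most 1/2 of it was reached by 27 pairs (15.9%, 11.2 to 22.1), beside 10.4% of all pairs. In 135 pairs the summits were at most 200 bp apart, and in these, 2 pairs (1.48%, 0.407 to 5.24) were at least 2 times above and 20 (14.8%, 9.80 to 21.8) at least 2 times below their median of 1.33, beside 9.77% and 9.98% of such pairs in the whole lists. The counting interval of the low share thus lay above the value of all pairs in the first count and included it in the second, and that of the high share included it in the first and lay below it in the second. Taken pair by pair, the counting interval of the ratio lay below the median of all pairs for 53 pairs, above it for 25, and included it for 92. Over all pairs 18.9% lay below and 21.2% above, and the intervals are narrower at the higher tags of this region.

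**Figure D3:**
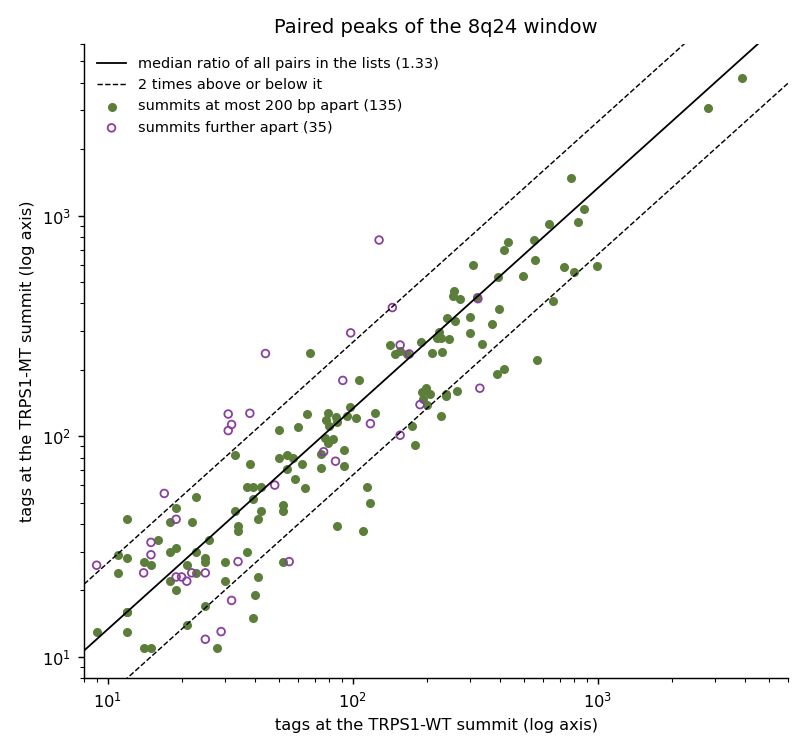
Tags at the TRPS1-MT summit against tags at the TRPS1-WT summit for the 170 pairs of the region (both axes log), filled where the summits are at most 200 bp apart (135) and open where they are further apart (35). The solid line marks the median ratio of all pairs in the lists, 1.33, and the dashed lines 2 times above and below it, and 9 of the 11 points above the upper dashed line are open.

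Low ratios included strong peaks on both sides of MYC. The peak at chr8:128608308-128608891, in an intron of the noncoding gene ENSG00000286266 and at −139.9 kb from the MYC TSS, had 564 tags in the TRPS1-WT and 221 in the TRPS1-MT library, a ratio of 0.392 and of 0.294 (0.250 to 0.344) relative to all pairs. Closer to MYC, at −67.3 kb, chr8:128680749-128681428 had 656 and 409. In an intron of NSMCE2, chr8:126137699-126138524 had 996 and 591, which made it number 3 of the region in TRPS1-WT cells and number 10 of the shared peaks in TRPS1-MT cells. In PVT1, chr8:129088935-129089541 had 388 and 192. At the overlap of LINC02964 and LINC00861, chr8:126980701-126981684 had 416 and 202. The lowest ratio of all, 0.336, belonged to chr8:128265644-128266346 in PCAT1, with 110 and 37 tags.

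Of the pairs at least 2 times above the median of all pairs, the most TRPS1-WT tags were in the exonic MYC peak, with 128, while strong pairs were raised by less. Relative to all pairs, the PVT1 peak of 777 and 1477 tags stood at 1.43 (1.31 to 1.56), the LINC00824 peak of 431 and 757 at 1.32 (1.17 to 1.49) and the LINC02964 peak of 415 and 702 at 1.27 (1.12 to 1.44). Between PVT1 and LINC00824, chr8:129326613-129327385 had 67 and 239 tags with summits 130 bp apart. In PCAT1, chr8:127891217-127891384 had 12 and 42 with summits 96 bp apart, and these were the 2 pairs with close summits past the limit. The other 9 joined summits further apart. The most extreme value, a ratio of 6.06, came from the exonic MYC peak of 128 tags, which reached into the wide TRPS1-MT peak of 775 tags at the 3′ end of the gene, with a summit 788 bp away, and not from its nearer counterpart of 268 tags. In PVT1, a pair of 31 and 106 tags had summits 271 bp apart.

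By gene, the 19 pairs in NSMCE2 had a median ratio of 1.08, and 18 of them were below the median of all pairs. With close summits this held for 14 of 15. In PVT1 the median of 27 pairs was 1.53, with 16 above and 11 below, and it was 1.36 with 10 above and 10 below among the 20 with close summits. PCAT1, with 39 pairs, stood at 1.35, near the value of all pairs. CASC8, whose body overlaps those of PCAT1 and POU5F1B, had 9 of its 12 pairs above, with a median of 1.77. The 16 pairs of LINC02964 were 8 above and 8 below. Whether such groups would recur in another library was not tested.

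Of the 420 TRPS1-WT peaks, 264 (62.9%) had their midpoint in an intron, 87 (20.7%) between genes, 58 (13.8%, 10.8 to 17.4) in a promoter and 11 in another exon. For TRPS1-MT these numbers were 457 (68.1%), 124 (18.5%), 72 (10.7%, 8.61 to 13.3) and 18. Over the whole lists, promoters held 17.9% and 14.9% and introns 49.4% and 50.9%. Promoters cover 9.13% of the bases of the region. The median distance to a coding TSS was 158 kb and 186 kb, beside 22.1 and 25.4 kb over the lists. Within 10 kb of a coding TSS lay 43 of the 420 TRPS1-WT and 56 of the 671 TRPS1-MT peaks. These are lower shares than the 34.6% and 31.8% of the lists.

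The local background around the peaks was raised in the region. It exceeded the lowest value of its list, which is the level the caller takes from the whole genome, by more than 5% for 69.8% of TRPS1-WT peaks (65.2 to 74.0) and 62.2% of TRPS1-MT peaks (58.4 to 65.7), beside 43.2% and 36.0% over the lists. Among peaks that were not shared the shares were 55.6% and 53.8%, beside 29.1% and 28.9%. HCT116 cells are known to carry extra copies of distal 8q, and the number of copies was not measured here. Local background was also higher at the stronger class of peaks. Its median was 6.10 at shared and 1.25 at other peaks of the region for TRPS1-WT, and 8.40 and 2.02 for TRPS1-MT. As no control library is named, the background was not measured apart from the peaks. It is not given as a property separate from their number and strength. Background, peak number and tags were all high in this region, and the part of copy number in them was not tested.

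Consensus sequences were searched on both strands within 100 bp of each summit. The AP-1 consensus (TGACTCA or TGAGTCA), bound by the JUN and FOS proteins, was near 17.6% of TRPS1-WT summits (14.3 to 21.6) and 10.4% of TRPS1-MT summits (8.34 to 13.0), beside 9.87% and 5.75% of all summits in the lists. It was near 29.4% of shared TRPS1-WT peaks (23.1 to 36.7) and 26.1% of shared TRPS1-MT peaks (19.96 to 33.3), beside 19.1% and 14.99% of all shared peaks. Shared peaks outside promoters had it in 32.6% and 26.9%, beside 22.5% and 17.7%. Peak strength moved with these shares. Among shared TRPS1-WT peaks outside promoters at or above the region's median −log10 p of 42.5, 47.8% (36.5 to 59.4) had it in the region and 39.3% in the whole list, and below that median 17.4% (10.2 to 28.0) and 15.9%. For TRPS1-MT, split at 48.6, these shares were 32.8% (22.8 to 44.7) and 29.5%, then 20.9% (12.9 to 32.1) and 12.5%. Of these 4 intervals of the region, 3 included the value of the list, although within each group the region's peaks were still the stronger ones. Median tags above the split were 201 in the region and 101 in the list for TRPS1-WT, and 237 and 123 for TRPS1-MT, and below it 30 and 19, then 30 and 25. The strongest peak of the region in each library, in LINC02964, had none of the 10 consensus sequences near its summit. The PVT1 peak of 827 tags in TRPS1-WT cells had AP-1, TEAD and GATA sequences. Within 100 bp of its summit, the TRPS1-MT counterpart of 934 tags had TEAD and GATA sequences but no AP-1. As the summits were 18 bp apart, the AP-1 sequence lay at the rim of the searched stretch. The peaks cover nearly the same DNA, so this is a difference in the stretch searched and not in the sequence of the peaks.

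The TEAD consensus (ACATTCC or GCATTCC) was near 11.2% of TRPS1-WT summits (8.52 to 14.6), beside 7.17% in the list, and near 5.66% of TRPS1-MT summits, beside 6.05%. The GATA letters (AGATAA or TGATAA, or the same with a final G), the family's known site, were near 37.9% and 37.4% of summits, beside 38.7% and 38.1%, so that the region did not stand out. The TCF/LEF letters ATCAAAG were near 4.76% and 2.83%, beside 3.67% and 3.52%. ZEB and SNAI E-box letters (CAGGTA or CAGGTG) were near 26.0% and 25.04%, beside 24.4% and 24.2%, and FOX letters (TGTTTAC) near 3.57% and 3.43%, beside 3.09% and 2.94%. The MYC E-box CACGTG was near 2.38% and 0.745%, beside 2.38% and 2.21%. The remaining sequences were rare, with CTCF near 2 and 1 summits, ETS (CCGGAAG) near 2 and 5, and STAT (TTCCNGGAA) near 2 and 5.

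**Figure D4:**
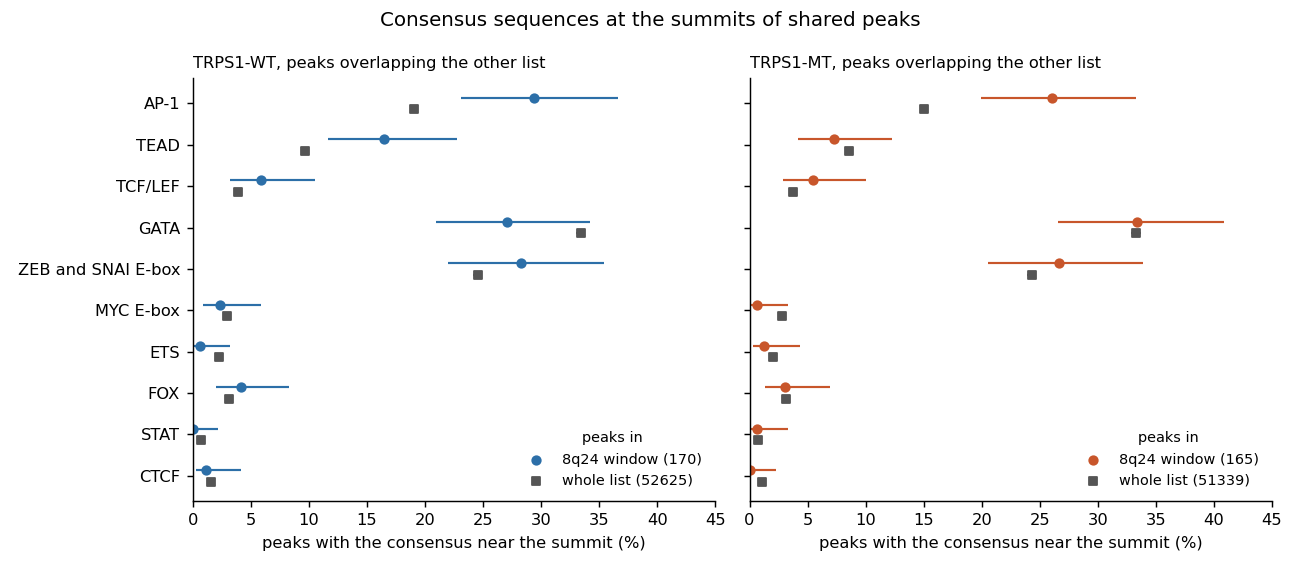
Share of peaks with each of 10 consensus sequences within 100 bp of the summit, in percent with 95% Wilson intervals as lines, for peaks that overlap the other list in the 8q24 region (circles) and in the whole list (squares), TRPS1-WT on the left and TRPS1-MT on the right. AP-1 lies at 29.4% and 26.1% in the region against 19.1% and 14.99% in the lists, and GATA at 27.1% and 33.3% against 33.4% and 33.3%.

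The label of an epithelial line was set beside promoter peaks of marker genes, which show where tagged TRPS1 was found and not expression. A promoter peak was present at 67.5% of all protein-coding genes in the TRPS1-WT list and at 76.4% in the TRPS1-MT list. It was present at 6 of 8 epithelial genes in each library, KRT8 the strongest with 525 and 964 tags, and absent at KRT18 and KRT20. Of 4 genes of other cell types, 4 had one in the TRPS1-WT and 2 in the TRPS1-MT library, of 9 to 41 tags and of 31 and 163 tags, the highest at COL1A1, a collagen gene. With so many promoters holding a peak, these counts do not check the label.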

How the data were processed

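Flag CUT&Tag of HCT116 cells was available for 1 TRPS1-WT and 1 TRPS1-MT library, grouped by the genotype in the labels. Reads were filtered by the authors, aligned to hg19 by Bowtie 0.12.8 and passed to MACS for peak calling in each library, with annotation by HOMER. Bowtie and HOMER are also in the submitters' processing notes. The methods name a release before MACS2, while the lists have the layout that MACS2 writes. The labels name hg19 and hg38. The last peak of each chromosome ended within its GRCh37 length, and GENCODE 44 mapped to GRCh37 was used.

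The deposited lists give for each peak a fold, which is a ratio of the summit to the local background, −log10 p, −log10 q, a score (10 times −log10 q) and the distance from the start of the peak to the summit as another deposited number. These are the authors' values and are not scaled between libraries. Total reads are not in the lists, and the depth of the libraries was not estimated from other values. The lowest −log10 q was 4.00 in each list, and nothing weaker can be seen.

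Tags and local background were recovered from fold and −log10 p with the Poisson model of MACS2, to within 0.01 in −log10 p. In a simulation of 20000 peaks under that same model 100% came back exactly. This checks the calculation and cannot show whether the lists follow the model. In the lists no value was found for 3 peaks of TRPS1-WT and 2 of TRPS1-MT. Overlap was 1 bp or more, places were set by the midpoint, and peaks on other sequences than chromosomes 1 to 22, X and Y (105 and 142) were left out, as was 1 TRPS1-MT peak across the lower edge. Intervals were Wilson for shares, exact Poisson for tags and exact binomial for ratios of single pairs. Those of median ratios came from the ranks of the pairs, which are not replicates.

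Region, genes, sequences and tests were chosen with earlier results of these data known. Clusters, close-summit pairs, shares by strength, the shares over all genes and lists beside single counts and the sum without 2 bins were added after seeing the values. Named were all coding genes, the genes given with the region, noncoding genes around MYC, the 10 strongest shared and unshared peaks of each list by −log10 p and the strongest promoter peak of each named gene, and other peaks in the accounts of ratios and clusters were chosen after their values were seen. CASC21, CCAT1, PCAT2, LINC00977, LINC01263 and the marker PECAM1 matched no entry by name. RNA sequencing and other experiments of the study were not used here. Sequence steps found 100% of 2000 planted sites. Scripts ran under Python 3.11.15 with scipy 1.17.1, numpy 2.4.6, pandas 2.3.3 and matplotlib 3.10.9.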

Additional observations from a re-analysis of the deposited data

How the results depend on the processing

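No paired analysis was possible because each condition had 1 library. Of 31 alternative values, 14 moved by less than their interval or stayed within 1.5 times of the count, and 17 moved by more. A change of direction was not scored. A narrower window without NSMCE2, TRIB1 and the strong peaks of LINC02964 held 253 TRPS1-WT and 411 TRPS1-MT peaks. At an even density of peaks, the shorter length alone would take both counts past the limit of 1.5 times. Both are among the 17, so their place there does not show a change in density. With as many of the strongest TRPS1-MT peaks as TRPS1-WT peaks, the region held 431 TRPS1-MT peaks. The shared percentage was 32.9 and 20.6 with summits at most 200 bp apart (24.6 and 13.1 in the lists), 49.8 and 31.9 with −log10 p of at least 10 (41.5 and 20.9), and 34.8 for TRPS1-MT with equal numbers (24.98). Promoters of coding TSSs alone held 3.33% and 2.53% (13.1% and 10.4% in the lists). AP-1 within 50 bp was at 9.52% and 4.92% (5.18% and 2.94%), and at −log10 p of at least 10 at 22.4% and 14.3% (14.1% and 7.22%). Background at 1.5 times the lowest was exceeded by 53.6% and 44.7% (27.3% and 21.0%). The median ratio of fold values in place of tags was 0.897, since the fold also carries the local background. Its interval over the pairs, 0.812 to 0.950, included the 0.926 of all pairs. For tags, the interval of the median, 1.12 to 1.32, lay below the 1.33 of all pairs. In each of these shares and ratios, the peak counts aside, the region stayed on the same side of the value of the list. With 1 library each, neither the spread between libraries nor the effect of depth on the number of peaks can be told apart from the condition.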
